A study of Homo sapiens with 4 samples.

Results

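The quantity described here is the difference between 2 thyroid cancer cell lines in their response to 40 °C, gene by gene. The response of a line is its log2(TPM + 1) at 40 °C minus that at 37 °C, where TPM is a gene's share of its library after correction for gene length. The response of TPC-1 was subtracted from the response of B-CPAP, so that a value above 0 means a higher response in B-CPAP, whichever way each line moved. Members were the genes that GENCODE 29 lists as protein-coding and whose TPM averaged 5 or more across 4 libraries. They numbered 9393 of the 19945 protein-coding genes, in a table of 58884 gene IDs. From the response of each line, a smooth curve (loess) fitted across the members on the GC content of their exons was first subtracted, and values so treated are called GC-adjusted. At the edge of the level filter, SLMAP (mean TPM 5.002) and TRAPPC2 (5.003) were just inside, and GCNT2 (4.997) and MACROD2 (4.99) were just outside.

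TPC-1 and B-CPAP are established human lines of papillary thyroid carcinoma, TPC-1 with a RET fusion and B-CPAP with a BRAF mutation as known background. The layout holds 4 libraries, 1 of TPC-1 at 37 °C, 1 of TPC-1 at 40 °C, 1 of B-CPAP at 37 °C and 1 of B-CPAP at 40 °C, with no other agent named in any of them. All were described as T25 flasks kept submerged at the stated temperature, but the stated time differs between 15 min (growth protocol), 20 min (design of the series) and 24 h (label of the treatment). With 1 library in each cell of the layout there is no replicate check, so no p-value is given anywhere and every difference is between libraries, not shown for the conditions. The only error available is that of counting reads. The 95% counting intervals printed below cover that error alone and hold no spread between cultures.

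When proteins unfold in heat, heat shock factor 1 is released from chaperones, forms trimers and binds heat shock elements, repeats of nGAAn in alternating orientation, in the promoters of chaperone genes. Chaperones of the HSP70, HSP90, DNAJ and small heat shock families then hold or refold proteins in the cytosol, while the endoplasmic reticulum and mitochondria have chaperones of their own. Because TPM is a share of a library, a gene's value also moves when other genes take more or less of that library.

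Sequences are shown for 2 features that the results below return to. Promoters are from RefSeq on GRCh38.p14, which held 7717 of the 9393 members, and cover 250 bases before to 50 bases after the start of the gene. The first 3 belong to chaperone genes of the cytosolic heat shock list, with the heat shock element (GAA, TTC and GAA in a row, with 2 bases between units, searched on both strands) in capitals. They are shown because they hold the same element and differ in their values. The HSPA8 stretch is chr11:123062155-123062214 on the minus strand, the DNAJB6 stretch is chr7:157336850-157336909 on the plus strand, and the CHORDC1 stretch is chr11:90223063-90223122 on the minus strand.
HSPA8: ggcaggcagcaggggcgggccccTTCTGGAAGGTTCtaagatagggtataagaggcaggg
DNAJB6: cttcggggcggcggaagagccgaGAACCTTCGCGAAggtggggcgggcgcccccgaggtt
CHORDC1: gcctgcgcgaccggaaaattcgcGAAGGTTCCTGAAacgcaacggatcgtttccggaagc

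The other sequences are from the coding regions of 3 members with the highest values and 2 with low values, from GENCODE 29. Each is the stretch of 30 codons with the most lysine and glutamate codons (AAA, AAG, GAA and GAG), which are in capitals, and positions count from the start codon. The CENPE stretch is positions 1558 to 1647, the KIF20B stretch 1711 to 1800, the GOLGA4 stretch 2893 to 2982, the COX7B stretch 139 to 228 and the TBCA stretch 28 to 117. They are shown to set the codons of long coding regions of the upper end beside those of short ones of the lower end. Being equal in size and picked for these codons, the stretches show neither coding length nor GC content. Low GC content was found at both ends, with exons at 34.7% for CENPE and 35.0% for TBCA.
CENPE: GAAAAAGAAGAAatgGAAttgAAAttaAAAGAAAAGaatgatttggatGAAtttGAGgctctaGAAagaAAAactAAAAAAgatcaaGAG
KIF20B: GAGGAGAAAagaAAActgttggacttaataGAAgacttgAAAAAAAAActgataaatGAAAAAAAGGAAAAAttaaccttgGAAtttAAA
GOLGA4: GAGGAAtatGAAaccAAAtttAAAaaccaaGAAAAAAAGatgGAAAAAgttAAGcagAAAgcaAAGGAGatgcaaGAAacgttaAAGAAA
COX7B: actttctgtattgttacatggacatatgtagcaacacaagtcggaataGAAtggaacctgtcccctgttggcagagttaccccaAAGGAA
TBCA: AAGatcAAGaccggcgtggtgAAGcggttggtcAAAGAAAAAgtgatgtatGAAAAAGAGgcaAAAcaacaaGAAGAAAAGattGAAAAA

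The libraries were of similar depth, estimated at 20703863 to 24467490 reads. Of the thyroid follicular markers, PAX8 was at 284 and 267 TPM in TPC-1 and 112 and 98.9 TPM in B-CPAP at 37 and 40 °C, and FOXE1 and HHEX were read in all 4 libraries. NKX2-1 was at 0 in both TPC-1 libraries and at 8.6 and 7.9 TPM in B-CPAP, while SLC5A5, the iodide transporter of the thyroid, was at 0 in all 4. The keratins KRT8 and KRT18 were between 139 and 570 TPM, and EPCAM and CDH1 were below 2 TPM in every library. The leukocyte markers PTPRC, CD3E, LYZ and CD68 and all 3 endothelial markers were below 1 TPM everywhere, with PTPRC and CD3E at 0. The summed fibroblast markers were 9.43 and 9.91 TPM in TPC-1 and 401.59 and 350.87 TPM in B-CPAP, of which THY1 gave 362 and 301 TPM. COL1A2, COL3A1 and LUM were between 6.97 and 12.4 TPM in B-CPAP and below 1 TPM in TPC-1. PDGFRB went the other way, at 6.19 and 6.72 TPM in TPC-1 against 4.15 and 4.65 TPM in B-CPAP. The libraries thus carry 2 epithelial keratins and some follicular factors, but no reads of the iodide transporter.

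Before the adjustment, both lines had higher levels of AT-rich genes and lower levels of GC-rich genes at 40 °C, and B-CPAP moved further. In the decile of members of lowest GC content (31.7 to 39.2%), TPC-1 had a median response of 0.24 and B-CPAP one of 0.60, and in the decile with the highest (61.3 to 73.8%) these were -0.18 and -0.35. The unadjusted difference of responses accordingly ran from a median of 0.35 to -0.16 across those deciles, with Spearman's rho of -0.63 between GC content and the difference over 9393 genes. After the adjustment rho was 0.01, as the construction of the adjustment requires. Across members the responses of the lines had Pearson's r of 0.64 before and 0.26 after adjustment, genes within 4 shared libraries not being independent replicates. What GC content stands for in these libraries was not tested.

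**Figure D1:**
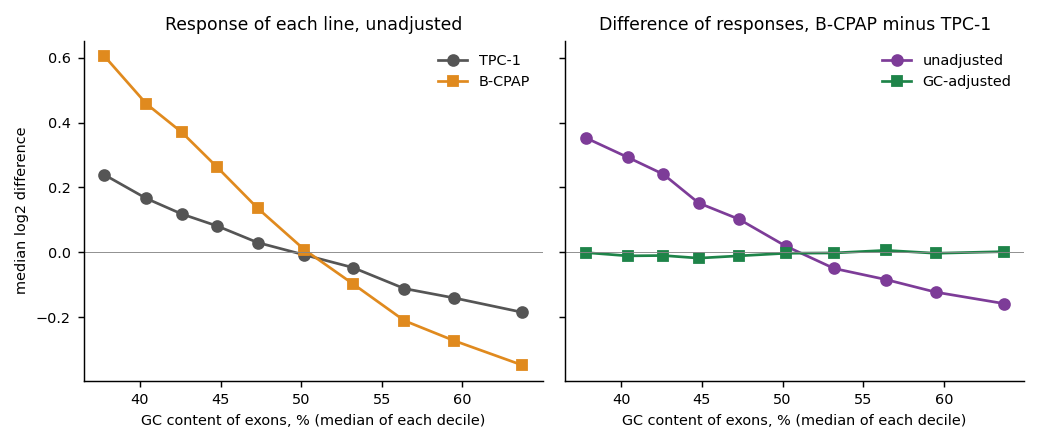
Median log2(TPM + 1) response to 40 °C against GC content, in deciles of the 9393 members. The left plot gives the unadjusted response of each line and the right plot the difference of responses before and after adjustment. B-CPAP has the steeper trend, and the adjusted medians lie within 0.02 of 0.

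The GC-adjusted differences were small for most genes, with an SD of 0.23, a median of -0.004 and a range from -1.43 (CXCL8) to 1.47 (CENPE). The middle 90% lay between -0.36 and 0.36, against a median counting standard error of 0.10, and the interval excluded 0 for 3159 of 9393 genes. At 1.5-fold or more (0.585 on the log2 scale), 102 genes (1.09% of members) were higher in B-CPAP and 94 (1.0%) were lower. At 2-fold the counts were 13 (0.138%) and 4 (0.0426%), and at a lower limit of 0.32 on the log2 scale, a ratio of 5 to 4, 615 (6.55%) and 640 (6.81%). Without the adjustment, 461 genes (4.91%) were 1.5-fold or more higher in B-CPAP and 57 (0.607%) lower, so the even split holds only after GC adjustment. Of the 102 higher genes 88 also passed without the adjustment, and of the 94 lower genes 33 did. PCM1 (0.586) and CPEB2 (0.587) were the closest inside the upper limit, with SLC39A10 and ZFHX3 just short of it. MTFP1 and MCEE (both -0.586) were the closest inside the lower limit, with EIF1B (-0.578) and MAT2A (-0.576) outside.

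**Figure D2:**
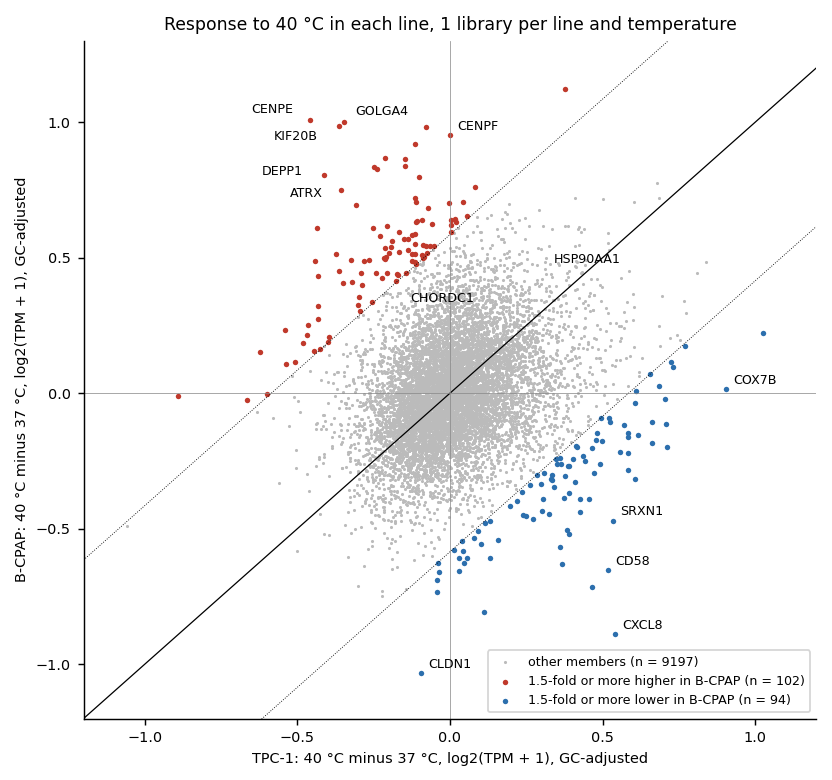
GC-adjusted response to 40 °C in TPC-1 (horizontal) and B-CPAP (vertical), in log2(TPM + 1), for 9393 genes. The solid line marks equal responses and the dotted lines a 1.5-fold difference. The 102 red genes lie above the upper dotted line, the 94 blue genes lie below the lower one, and HSP90AA1 and CHORDC1 lie between them.

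Most genes past 1.5-fold had GC-adjusted responses of opposite sign in the lines. This was so for 90 of the 102 higher genes and 81 of the 94 lower genes, which the choice of genes favours, beside 3634 of all 9393 members. Before adjustment the lines had opposite signs for 55 of the 102 and 43 of the 94. For the 102 genes TPC-1 had a median unadjusted response of -0.08 and B-CPAP one of 0.92, and for the 94 genes TPC-1 had 0.52 and B-CPAP -0.01. After adjustment the medians were -0.20 and 0.52 for the 102 genes, and 0.39 and -0.32 for the 94 genes. On that scale the response larger in size was that of B-CPAP in 85 of the 102 genes, and in 42 of the 94, and that of TPC-1 in 52 of the 94.

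The same genes can be described by which library stood lowest, which the choice of genes partly fixes. A high difference favours a low B-CPAP library at 37 °C or a low TPC-1 library at 40 °C. A low difference favours a low TPC-1 library at 37 °C or a low B-CPAP library at 40 °C. The B-CPAP library at 37 °C was the lowest of the 4 for 78 of the 102 higher genes (76.5%), beside 34.3% of all members. The TPC-1 library at 37 °C was the lowest for 61 of the 94 lower genes (64.9%), beside 22.3% of all members. At 37 °C, 81 of the 102 genes were lower in B-CPAP than in TPC-1, and at 40 °C 39 were, a shift that the choice of genes also favours. For all members the counts were 5163 and 4800 of 9393. With 1 library for each line at 37 °C, a low library and a response of the line to heat cannot be told apart. The expression of 7 genes on each side was below 1 TPM in one of the lines, which left 95 and 87 genes read in both.

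**Figure D3:**
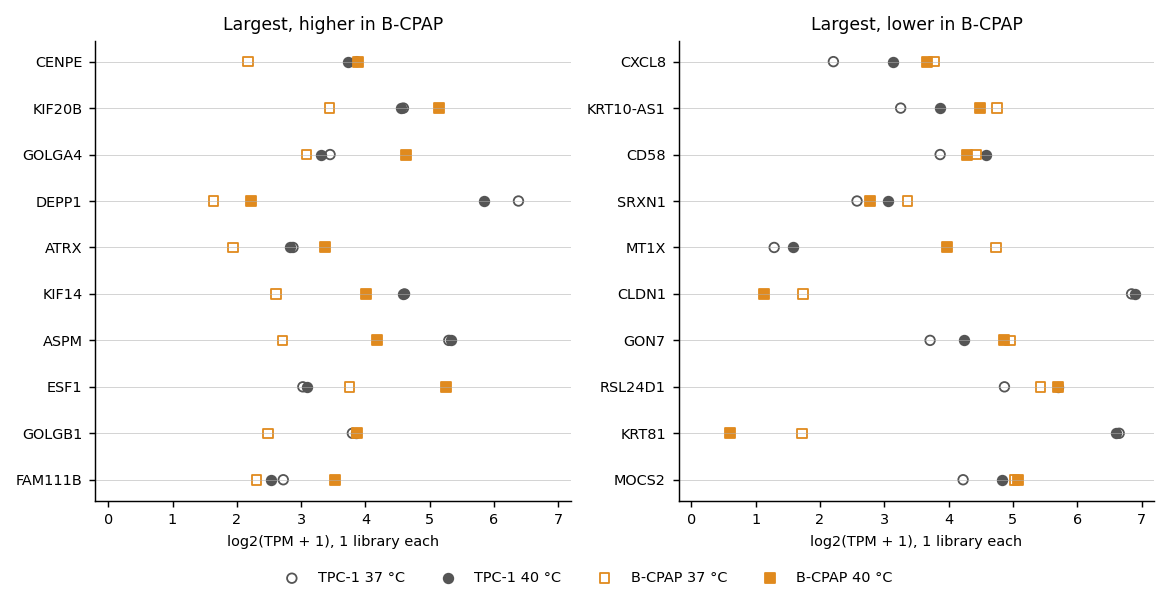
Level of the 10 genes with the largest difference of responses in each direction, as log2(TPM + 1), with 1 point per library. In most genes on the left the open square (B-CPAP at 37 °C) is leftmost, and in most genes on the right the open circle (TPC-1 at 37 °C) is leftmost. The choice of genes favours both patterns.

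Levels below are given for TPC-1 at 37 and then 40 °C, followed by B-CPAP at 37 and then 40 °C, and a value in brackets is the difference of responses. The kinesins, motor proteins that move along microtubules, held 3 of the 6 highest values. CENPE, the motor that carries chromosomes to the spindle equator (chr4:103105806-103198409, minus strand), measured 13.6 and 12.2 TPM for TPC-1 against 3.51 and 13.8 TPM for B-CPAP. Its difference of responses was 1.47 (counting interval 1.3 to 1.7). The B-CPAP library at 37 °C was the low one, and the other 3 libraries were close together. KIF20B, which acts in the last step of cell division (chr10:89701610-89774939), measured 23.1 and 22.6 TPM for TPC-1 against 9.84 and 34.4 TPM for B-CPAP, a difference of 1.35 (1.17 to 1.53). KIF14, another motor of cytokinesis, was at 23.4 and 22.9 against 5.09 and 15.1 TPM, a difference of 1.08 (0.87 to 1.29). For KIF20B the B-CPAP library at 40 °C was above both TPC-1 libraries, and for KIF14 it was below both. KIF5B, a motor of cargo transport with no mitotic role as its main task, was at 67.4 and 78.1 against 49.2 and 107.7 TPM, a difference of 0.58 (0.47 to 0.69).

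Of the 22 kinesins measured, 20 had a difference above 0, beside 49.2% of all members, and 7 were at 0.32 or more (31.8%), with none lower. The median was 0.20, beside -0.004 over all members. In bulk RNA, fewer cells in mitosis and less of these RNAs per cell cannot be told apart. The median coding length of the list was 2884 bases, beside 1383 bases for all members, and with coding length also adjusted for, the list median was 0.12. The part of coding length in the result is otherwise not tested.

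Other genes of the spindle followed a similar order of libraries. ASPM, which focuses microtubules at the spindle poles, measured 38.3 and 39.3 TPM for TPC-1 against 5.53 and 17.2 TPM for B-CPAP, a difference of 1.08 (0.92 to 1.23). CENPF, a large kinetochore protein, was at 76.7 and 86.2 against 19.8 and 54.9 TPM, a difference of 0.95 (0.86 to 1.05). TTK, the kinase that starts the spindle checkpoint, was at 19.8 and 17.6 against 9.72 and 22.4 TPM, a difference of 1.0 (0.76 to 1.24). In all 3 the B-CPAP library at 37 °C was lowest, and only for TTK did B-CPAP at 40 °C pass both TPC-1 libraries. Of 28 centrosome and spindle pole genes, 23 were above 0 and 11 were at 0.32 or more (39.3%), with a median of 0.20. This median was 0.10 both with coding length adjusted for and among genes averaging 20 TPM or more.

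The kinetochore and spindle checkpoint list as a whole lay much closer to the background. Its median was 0.06, with 23 of 33 genes above 0, 5 at 0.32 or more (15.2%) and 1 lower. These 5 all passed 1.5-fold, and SGO2 (0.71) and KNL1 (0.68), a protector of centromeric cohesion and a kinetochore scaffold, were among them with TTK and CENPF. The G2 and M phase list had a median of 0.04 and held genes on both sides. TOP2A, which untangles DNA, was at 224.3 and 230.9 against 86.1 and 157.9 TPM (0.49), whereas CKS2, a small partner of cyclin-dependent kinases, was at 309.0 and 457.8 against 1098.4 and 1502.5 TPM (-0.39). Mitotic genes thus did not share one direction.

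Cohesin and condensin, the rings that hold and fold chromosomes, had the highest median of any list with at least 3 members. Of 20 genes, 19 were above 0 and 8 were at 0.32 or more (40.0%), with a median of 0.30 and none at -0.32 or less. SMC3, a cohesin subunit, measured 37.7 and 39.6 TPM for TPC-1 against 16.7 and 40.1 TPM for B-CPAP, a difference of 0.83 (0.64 to 1.02). SMC2 of condensin (0.66), the cohesin loader NIPBL (0.62) and SMC6 (0.59), of the related SMC5/6 repair complex, also passed 1.5-fold. For SMC3 the B-CPAP library at 40 °C reached the level of TPC-1. The median was 0.64 before GC adjustment and 0.22 with coding length adjusted for, the list having a median GC content of 39.7% and a median coding length of 3621 bases.

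Large chromatin regulators were also mostly above 0. ATRX, a remodeller that places a histone H3 variant in repeats, measured 6.33 and 6.06 TPM for TPC-1 against 2.84 and 9.4 TPM for B-CPAP, a difference of 1.11 (0.93 to 1.29). PHIP, a reader of histone methylation, was at 10.6 and 12.5 against 3.62 and 10.8 TPM, a difference of 0.75 (0.57 to 0.94). ASH1L, a histone methyltransferase (0.57), and CHD1, a remodeller at transcribed genes (0.54), were just under 1.5-fold. Of the 38 genes, 32 were above 0 and 13 were at 0.32 or more (34.2%), with a median of 0.20. With coding length adjusted for, this median was 0.07, and it was 0.10 among genes averaging 20 TPM or more. The list had the longest coding regions of those described here, with a median of 5494 bases.

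The golgins, long coiled-coil proteins that tether vesicles to the Golgi, were divided. GOLGA4 (chr3:37243177-37366751) measured 9.93 and 8.95 TPM for TPC-1 against 7.49 and 23.8 TPM for B-CPAP, a difference of 1.34 (1.15 to 1.54), and here B-CPAP at 40 °C stood apart from the other 3 libraries. GOLGB1 was at 12.9 and 13.4 against 4.6 and 13.6 TPM, a difference of 1.06 (0.88 to 1.246), and here B-CPAP at 37 °C stood apart instead. Of 23 genes in the list 14 were above 0, and the median was 0.12, which was 0.02 among genes averaging 20 TPM or more. TPR and RANBP2, long filament proteins of the nuclear pore, had differences of 1.01 and 0.71. The other 26 measured genes of the nuclear pore list were all within 0.32 of 0, and the list median was 0.03, or -0.03 with coding length adjusted for.

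Several high values came from genes outside these groups. ESF1, a nucleolar protein of ribosome assembly, measured 7.15 and 7.48 TPM for TPC-1 against 12.5 and 37.2 TPM for B-CPAP, a difference of 1.06 (0.72 to 1.41). FAM111B, a protease-like protein, was at 5.6 and 4.79 against 3.95 and 10.5 TPM (1.04). DEPP1, a short gene induced by FOXO factors (chr10:44970981-44978810, minus strand), was at 82.3 and 56.4 against 2.11 and 3.65 TPM, a difference of 1.22 (0.82 to 1.61). DEPP1 was lower at 40 °C in TPC-1 and higher at 40 °C in B-CPAP, and its coding region of 636 bases and GC content of 57.4% set it apart from the long AT-rich genes above. EFHD1, at 27.5 and 23.0 against 0.15 and 0.802 TPM (0.99), rested on 3 reads in its lowest library.

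At the lower end, CXCL8, the chemokine interleukin-8 that draws neutrophils (chr4:73740506-73743716), had the most negative value. It measured 3.62 and 7.81 TPM for TPC-1 against 12.7 and 11.7 TPM for B-CPAP, a difference of -1.43 (-1.91 to -0.95). The level was higher at 40 °C in TPC-1 and slightly lower at 40 °C in B-CPAP, and with a GC content of 32.3% the adjustment moved it from -1.05 to -1.43. BIRC3 and CCL2, of the same cytokine list, were below 1 TPM in B-CPAP, and their differences were -0.15 and -0.20 before the adjustment and -0.52 and -0.35 after it. TNFAIP3, a brake on NF-kB signalling, was at 5.43 and 4.79 against 6.69 and 8.85 TPM, a difference of 0.47 (0.13 to 0.82). The 17 genes of the list had a median of -0.04, and of 0.02 where each line had a mean TPM of at least 5.

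Other genes among the lowest belonged to no list. CD58, the ligand by which T cells adhere, measured 13.6 and 22.9 TPM for TPC-1 against 20.5 and 18.5 TPM for B-CPAP, a difference of -1.17 (-1.54 to -0.80). CLDN1, a tight junction protein, was at 114.0 and 117.8 against 2.33 and 1.18 TPM (-0.94), and KRT81, a hair keratin, was at 99.6 and 95.8 against 2.29 and 0.519 TPM (-0.92). The last 2 were barely read in B-CPAP, with 30 and 7 reads in the lowest library. KRT10-AS1, listed as protein-coding in GENCODE 29 and lying opposite KRT10, was at 8.54 and 13.6 against 26.0 and 21.4 TPM, a difference of -1.18 (-1.53 to -0.82). The library kit does not mark strand, so reads where KRT10-AS1 overlaps KRT10 cannot be told apart by strand. The extent of that overlap was not checked. KRT10 was at 17.4 and 21.0 against 33.3 and 32.2 TPM (-0.28).

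Redox and metal-binding genes gave further negative values. SRXN1, the enzyme that restores overoxidised peroxiredoxins (chr20:646615-653370, minus strand), measured 4.96 and 7.31 TPM for TPC-1 against 9.29 and 5.88 TPM for B-CPAP, a difference of -1.01 (-1.47 to -0.55). The lines moved in opposite directions before the adjustment as well. The NRF2 list as a whole did not follow it, since the median of 24 genes, SRXN1 included, was -0.04 (0.01 after quantile normalization). In that list 2 genes were at 0.32 or more, and SRXN1 was the only one at -0.32 or less. NFE2L2 itself, the factor that drives the list, was at 40.2 and 42.7 against 17.4 and 29.3 TPM (0.46). Of 3 metallothioneins, which bind zinc and copper, MT2A was at 1029.4 and 819.5 against 1148.1 and 711.9 TPM (-0.24). MT1X (-0.997) and MT1E (-0.33) were near 1 or 2 TPM in TPC-1, and their near-identical sequences make both uncertain.

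The 13 mitochondrially encoded genes had the lowest median, -0.43, and all 13 were below 0. Of them 10 were at -0.32 or less (76.9%, beside 6.81% of members). MT-CO1, the core subunit of cytochrome c oxidase, measured 13859.7 and 17678.9 TPM for TPC-1 against 25452.5 and 25403.3 TPM for B-CPAP, a difference of -0.50 (-0.51 to -0.48). MT-ND5, a subunit of complex I, was at 3108.4 and 4696.5 against 5300.1 and 6165.8 TPM, a difference of -0.55 (-0.57 to -0.53). TPC-1 at 37 °C was the lowest library for both, and B-CPAP exceeded TPC-1 at either temperature. MT-ATP8 (-0.76) overlaps MT-ATP6, so their reads may be shared. Without the GC adjustment the median was -0.21 and 12 of 13 were below 0. These transcripts are made and processed inside mitochondria as few long precursors, so they are not 13 separate measurements.

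Among nuclear genes with mitochondrial products, subunits of oxidative phosphorylation and ribosomal proteins were mostly below 0, and chaperones and proteases lay near 0. Of 72 nuclear subunits of oxidative phosphorylation 54 were below 0, with a median of -0.12 and 11 at -0.32 or less (15.3%). COX7B, a small subunit of cytochrome c oxidase, measured 15.1 and 31.8 TPM for TPC-1 against 70.2 and 93.2 TPM for B-CPAP, a difference of -0.89 (-1.11 to -0.67). Both lines had more of it at 40 °C, TPC-1 by the larger ratio. Mitochondrial ribosomal proteins had a median of -0.13, with 59 of 74 below 0 and 11 at -0.32 or less (14.9%), MRPL13 (-0.62) being the only one past 1.5-fold. Both lists have short coding regions, with medians of 469 and 591 bases, and with coding length adjusted for their medians were each -0.07. After quantile normalization the medians were -0.06 for both, and without GC adjustment -0.07 and -0.04. Mitochondrial chaperones and proteases had 7 of 16 genes above 0 and none past 0.32 either way. Their median of -0.05 was 0.05 among genes averaging 20 TPM or more, 0.03 without GC adjustment and 0.04 after quantile normalization.

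Cytosolic ribosomal proteins had a median of -0.08, with 49 of 75 below 0, 9 at -0.32 or less (12%) and none higher. RPS20 measured 1225.0 and 1591.4 TPM for TPC-1 against 633.6 and 680.8 TPM for B-CPAP, a difference of -0.49 (-0.53 to -0.45). With coding length adjusted for, the list median was -0.02, and many of these genes have processed copies in the genome that could share reads. Of 38 translation factors 30 were below 0, with a median of -0.05 (0.01 without GC adjustment), 3 at 0.32 or more (7.89%) and 5 at -0.32 or less (13.2%). EIF3A, the largest subunit of initiation factor 3, was at 121.2 and 122.3 against 81.2 and 136.0 TPM (0.48), and EIF3M, a small one, was at 28.4 and 38.3 against 60.2 and 69.6 TPM (-0.55).

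TBCA, a tubulin-folding cofactor, measured 44.9 and 75.3 TPM for TPC-1 against 94.8 and 113.4 TPM for B-CPAP, a difference of -0.86 (-1.01 to -0.72). TXNDC9, a regulator of the chaperonin TRiC, was at 7.4 and 15.7 against 18.7 and 32.0 TPM (-0.60), while the 16 genes of the TRiC and prefoldin list had a median of -0.02, which was 0.10 without GC adjustment and 0.04 after quantile normalization. In both genes each line was higher at 40 °C, and TPC-1 by the larger ratio. RSL24D1 (-0.92), a ribosome assembly factor, MOCS2 (-0.91), of molybdenum cofactor synthesis, and GON7 (-0.93), of tRNA modification, were also short AT-rich genes with TPC-1 at 37 °C as the lowest library. DUSP2 (-0.91) and FAM50B (-0.87) were below 1 TPM in TPC-1, DUSP2 being listed at 0 at 37 °C.

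The p53 targets had a median of -0.14, with 17 of 21 below 0 and 4 at -0.32 or less (19%). TP53INP1, a p53-induced autophagy and death protein, measured 15.7 and 24.1 TPM for TPC-1 against 1.33 and 1.62 TPM for B-CPAP, a difference of -0.74 (-1.08 to -0.40). CDKN1A, the p21 cell cycle inhibitor, was at 312.1 and 316.0 against 13.6 and 9.28 TPM, a difference of -0.42 (-0.66 to -0.17). CCNG1, a cyclin induced by p53, was at 94.2 and 141.8 against 43.8 and 59.3 TPM, a difference of -0.52 (-0.67 to -0.38). TP53INP1 and CCNG1 were higher at 40 °C in both lines, and CDKN1A was level in TPC-1 and lower in B-CPAP. Other inhibitors went the other way, with CDKN1B, which encodes p27, at 81.4 and 81.0 against 25.3 and 38.3 TPM (0.48).

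The cytosolic heat shock list lay close to the background in its difference of responses. Of 34 measured chaperones, cochaperones and heat shock factors, 18 were above 0 and 16 below, with a median of 0.01 (-0.03 with GC content averaged over transcripts) beside -0.004 over all members. At 0.32 or more there were 2 (5.88%, beside 6.55% of members) there was none at -0.32 or less, and none passed 1.5-fold. CHORDC1, an HSP90 cochaperone, measured 5.75 and 6.27 TPM for TPC-1 against 7.44 and 15.3 TPM for B-CPAP, a difference of 0.47 (0.25 to 0.69). HSP90AA1, the inducible HSP90, was at 545.0 and 705.3 against 577.8 and 935.5 TPM, higher at 40 °C in both lines, with a difference of 0.18 (0.15 to 0.22). DNAJB4, an HSP70 partner, was the other past 0.32 (0.33, interval -0.01 to 0.67).

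The remaining heat shock genes lay close together. HSPA8, the constitutive HSP70, measured 1464.5 and 1393.6 TPM for TPC-1 against 2598.6 and 2893.5 TPM for B-CPAP, a difference of 0.18 (0.16 to 0.20). HSPA1B, the inducible HSP70, was at 36.1 and 41.5 against 130.8 and 136.6 TPM (-0.02), and is uncertain because HSPA1A is near-identical to it. HSPH1, the HSP110 exchange factor, was at 35.4 and 39.8 against 62.8 and 92.6 TPM, which is 0.39 before and 0.04 after adjustment. DNAJA1 (-0.01), DNAJB1 (0.08), HSP90AB1 (0.11), HSPA4 (0.16) and STIP1 (0.16) were all within 0.32 of 0. On the negative side were the small heat shock protein HSPB8 (-0.22), its partner BAG3 (-0.16), IFT25 (-0.23), HSPA14 (-0.15) and DNAJA2 (-0.13). HSF1, the factor itself, was at 85.8 and 68.5 against 124.9 and 86.0 TPM (-0.04). The other 17 genes of the list were between -0.13 and 0.15.

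The heat shock element spelled out above was in 133 of 27305 RefSeq promoters (0.487%) and in 4 of the 29 promoters matched to the heat shock list (13.8%). Among all members it was in 25 of 7717 matched promoters (0.324%). It was in none of the 83 matched promoters of the higher genes and none of the 76 of the lower genes. At the share of all members, sets of this size would mostly hold none. The 4 genes were CHORDC1 (0.47), HSPA8 (0.18), DNAJA1 (-0.01, interval -0.11 to 0.09) and DNAJB6 (-0.09, interval -0.18 to 0.01). The first 2 intervals were above 0 and the last 2 included 0. Their median was 0.08, and that of the 25 matched list genes without this exact pattern was 0.005. Only this pattern within the promoter window was searched, so the 25 genes, HSPA1B and DNAJB1 among them, can hold elements of another form or place. The short motif TTTGAA, searched on both strands, was in 17 of the 83 promoters of the higher genes (20.5%) and 11 of the 76 of the lower genes (14.5%). Its share was 9.23% of members and 15.4% of all promoters of that length. The CCAAT box was in 30.1% of the higher genes, 38.2% of the lower genes and 37.3% of members. TTTGAA is AT-rich, as are the exons of the genes at both ends, and the part of base composition in its shares was not tested.

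Chaperones of the endoplasmic reticulum were more often on the B-CPAP side. HSP90B1, its HSP90, measured 457.8 and 449.4 TPM for TPC-1 against 225.6 and 391.9 TPM for B-CPAP, a difference of 0.54 (0.48 to 0.59). CANX, the lectin chaperone calnexin, was at 416.0 and 388.7 against 187.6 and 255.2 TPM, a difference of 0.36 (0.30 to 0.41). EDEM1, which sends misfolded glycoproteins to degradation, was at 52.8 and 53 against 26.6 and 40.1 TPM, a difference of 0.40 (0.27 to 0.53). In all 3, B-CPAP was below TPC-1 at both temperatures and nearer to it at 40 °C. HERPUD1, a degradation factor induced by the unfolded protein response, was at 82.2 and 88.2 TPM and at 33.3 TPM in both B-CPAP libraries (-0.34). Of 31 genes, 19 were above 0, 4 were at 0.32 or more (12.9%) and 1 was lower, with a median of 0.13, which was 0.09 among genes averaging 20 TPM or more.

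Glycolysis and hypoxia genes had a median of 0.13, with 26 of 33 above 0, 4 at 0.32 or more (12.1%) and none lower. NDRG1, a hypoxia-induced gene, measured 386.1 and 290.8 TPM for TPC-1 against 31.6 and 31.7 TPM for B-CPAP, a difference of 0.48 (0.39 to 0.56). HK2, the hexokinase that starts glycolysis in many tumours, was at 101.9 and 99.5 against 34.4 and 46.1 TPM, a difference of 0.47 (0.36 to 0.58). NDRG1 was lower at 40 °C in TPC-1 and level in B-CPAP, and HK2 was level in TPC-1 and higher in B-CPAP. P4HA1, a collagen hydroxylase induced by hypoxia, was at 149.8 and 160.6 against 40.0 and 69.3 TPM (0.38). The list median was 0.08 without the GC adjustment and 0.14 with coding length adjusted for, so it was one of the medians that length moved little.

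Integrins, laminins and collagens had a median of 0.14, with 24 of 32 above 0, and 0.05 with coding length adjusted for. ITGAV, a receptor for vitronectin and fibronectin, measured 51.2 and 58.8 TPM for TPC-1 against 25.8 and 49.8 TPM for B-CPAP (0.37). Of the contractile genes, MYH10 was at 105.6 and 97.7 against 35.3 and 50.9 TPM (0.53), whereas MYL9 was listed at 0 in both B-CPAP libraries, so that its value of 0.35 describes TPC-1 and the adjustment only. Replication-dependent histones, whose mRNAs mostly lack a poly(A) tail and are near-identical, were few (12 genes) and imprecise. H2BC4 was at 11.7 and 8.51 against 3.7 and 6.17 TPM, with an interval from 0.12 to 1.74 around 0.93.

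**Figure D4:**
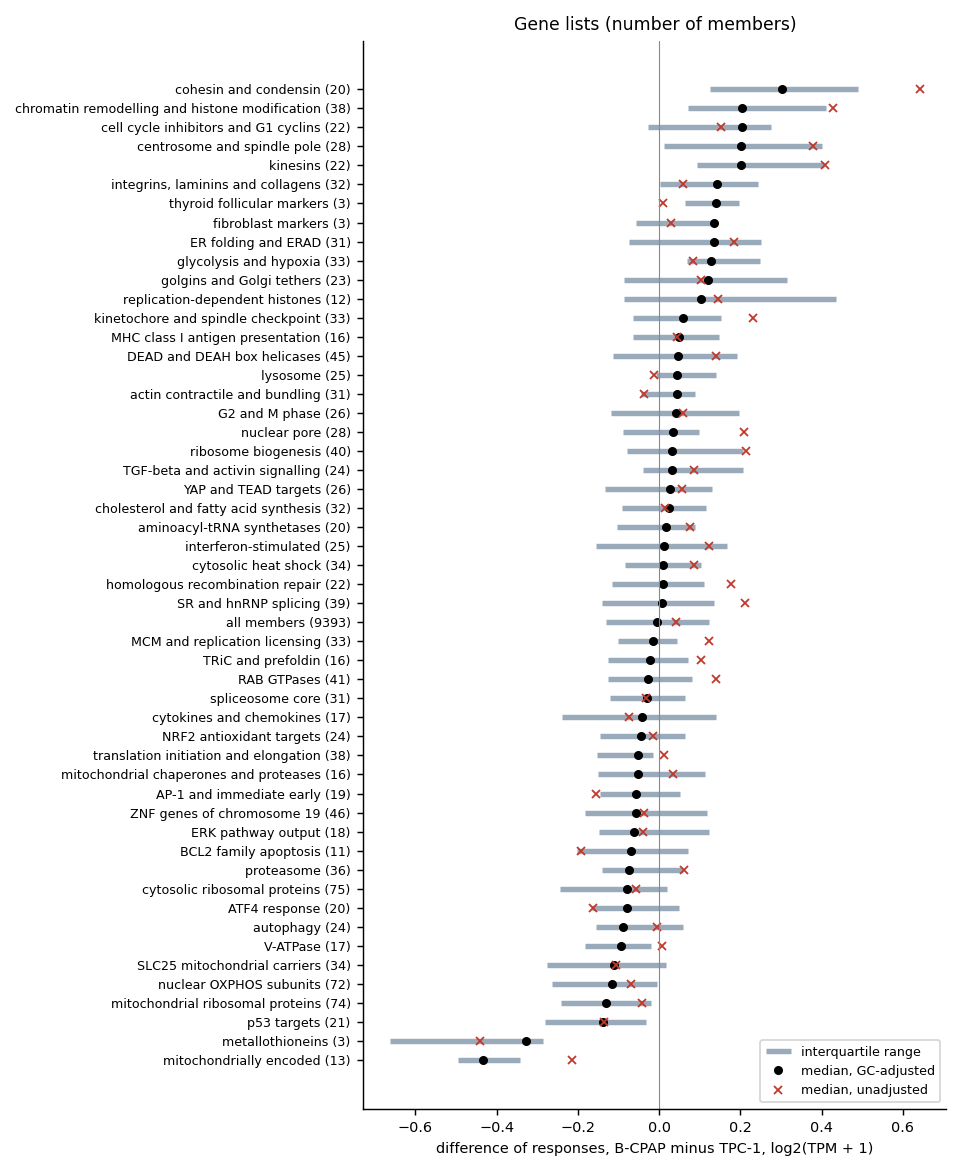
Difference of responses (B-CPAP minus TPC-1) for each gene list with at least 3 members. Black points are GC-adjusted medians, bars span the interquartile range and red crosses are unadjusted medians, all in log2(TPM + 1). Cohesin and condensin (0.30) are at the top, mitochondrially encoded genes (-0.43) at the bottom, and cytosolic heat shock (0.01) near the median of all members.

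Beyond these groups, members at the 2 ends differed in coding length, which the adjustment had not used. The median coding length was 2562 bases for the 102 higher genes, 732 bases for the 94 lower genes and 1383 bases for all members. Both ends had low GC content, with medians of 41.79 and 41.77% beside 48.59%, and a low level, with median TPM of 11.12 and 11.87 beside 26.02. Across 9393 genes Spearman's rho between coding length and the difference was 0.25, with 0.21 for the adjusted response of B-CPAP and -0.07 for that of TPC-1. In the shortest decile (75 to 549 bases) the median difference was -0.08, with 13 genes (1.35%) 1.5-fold or more higher and 26 (2.71%) lower. In the longest decile (3510 to 22776 bases) it was 0.10, with 41 genes (4.36%) higher and none lower. What stands behind the relation to coding length was not tested.

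**Figure D5:**
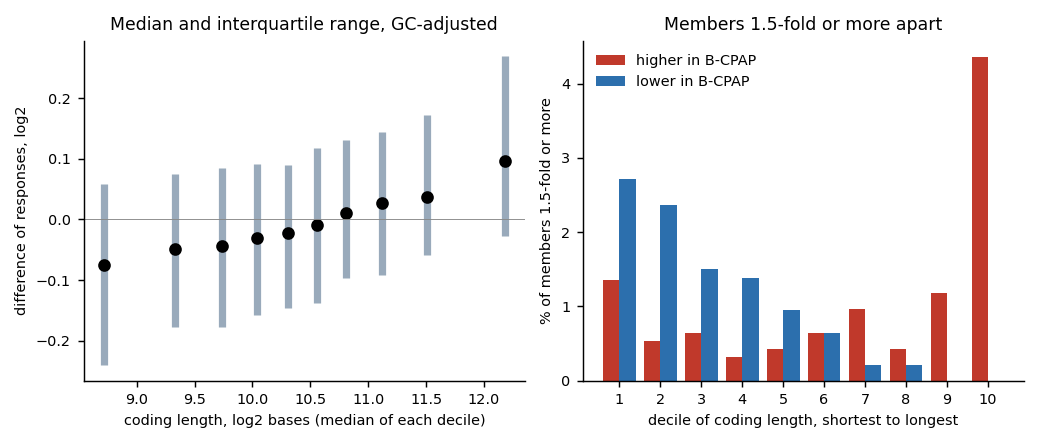
Difference of responses by decile of coding length. The left plot gives the GC-adjusted median (point) and interquartile range (bar) in log2(TPM + 1), and the right plot the percentage of members 1.5-fold or more higher or lower in B-CPAP. The lower calls decline from 2.71% in the first decile to 0 in the last 2, and the higher calls reach 4.36% in the last.

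Codon content followed the same ends less closely. Lysine and glutamate codons made up 16.07% of codons at the median of the higher genes, 12.89% of the lower genes and 12.76% of all members, with a rho of 0.07 across members. In the genes printed above, the share was 26.5% for CENPE, 24.2% for KIF20B and 29.2% for GOLGA4, beside 7.5% for COX7B and 25.2% for TBCA, so TBCA at the lower end was as rich in them as CENPE. The coding lengths of these genes were 8103, 5460, 6729, 240 and 393 bases in that order. Chromosomes differed little, with medians from -0.032 (chromosome 16) to 0.021 (chromosome X) in the nuclear genome. Chromosome 6 held 12 higher and 6 lower genes among 470 members, and chromosome 1 held 12 and 8 among 993, beside 1.09% higher and 1.0% lower over all members. The higher genes of chromosome 6 include the histone genes H2BC4 and H2AC8, which are near-identical to others and imprecise.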

How the data were processed

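RNA of 4 libraries was analysed, 1 for each of 2 lines at 37 and 40 °C. TPM values were deposited by the authors, and per the submitters' processing notes FastQC, MultiQC, Trimmomatic 0.38, featureCounts 2.0.0 and GRCh38 were used. Which aligner and which annotation release they used is not given in the sources used here. RNeasy Plus for extraction and the TruSeq RNA v2 library kit, which does not mark strand, are per the labels' protocols. TPM was analysed as log2(TPM + 1), a scale that understates changes of low genes. GENCODE 29, which held 58611 IDs (99.5%), gave gene types, coordinates, exon GC content and coding sequences.

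Loess (R 4.3.3, span 0.3, degree 2, symmetric family) on the GC content of all exons of a gene was fitted per line over all members and subtracted. It also shifts genes with no reads in a line. TPM keeps no depth, so reads were estimated from the steps of low values, of which 90.5 to 92.0% up to 20 reads were whole within 0.02 of a read. Of values from 20 to 200 reads, 65.8 to 67.5% were whole by the same limit, so the read numbers are approximate. The estimated reads gave the 95% counting intervals by the delta method. PCR copies are not independent molecules, so the intervals are a lower limit of the error. No test was run, and the computation was tested on simulated data. Quantile normalization used limma 3.58.1.

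In all, 54 gene lists with 1924 entries were used, 51 with at least 3 members. Members and lists were chosen with earlier results of these data known. Named genes were the 15 with the largest difference each way whose interval excludes 0, all genes of the cytosolic heat shock list, up to 4 of each other list by absolute difference, and 6 with the largest opposite responses. The marker genes, the genes beside a limit and KRT10 were named beyond that rule. Alternatives were other pseudocounts, level filters, GC corrections, scalings and thresholds. Some genes that these rules select are not reported here.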

Additional observations from a re-analysis of the deposited data

Results flagged for a closer look

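Flagged here are 4 genes whose lines moved in opposite directions by more than counting error, before and after the GC adjustment. Each line and temperature had 1 library. These are not all such genes. CANX, for example, moved by -0.10 in TPC-1 and 0.44 in B-CPAP before the adjustment, and by -0.19 and 0.17 after it. The difference was not tested for any of them. CENPE (1.47) and DEPP1 (1.22) were lower at 40 °C in TPC-1 and higher in B-CPAP. KRT10-AS1 (-1.18) and SRXN1 (-1.01) were higher at 40 °C in TPC-1 and lower in B-CPAP. DEPP1 was near 2 to 4 TPM in B-CPAP, and KRT10-AS1 may share reads with KRT10 on the other strand.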

How the results depend on the processing

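No paired analysis was possible because each group has 1 library and the titles carry no replicate numbers, and for the same reason no library could be left out. The counts at 1.5-fold, 102 higher and 94 lower, depended most on the treatment of low values and of GC content. They were 188 and 166 with a pseudocount of 0.1, 34 and 22 with a pseudocount of 5, 236 and 206 at a mean TPM of at least 1, 26 and 25 at a mean TPM of at least 20, and 461 and 57 without GC adjustment. Requiring a mean TPM of 5 within each line gave 79 and 56, a 2-fold threshold 13 and 4, and a threshold of 0.32 (log2) 615 and 640. Other GC fits, an added exon length term, quantile normalization and leaving out mitochondrially encoded genes kept both counts within 1.5 times. Coding length as a second term, chosen after seeing the data, gave 83 and 68, of which 72 and 66 were shared with 102 and 94.

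The median of the cytosolic heat shock list was 0.085 without GC adjustment and 0.071 after quantile normalization. Without GC adjustment the medians of 9 lists changed sign: RAB (0.141), MCM (0.122), TRiC and prefoldin (0.103), proteasome (0.061), mitochondrial chaperones (0.033), translation (0.012), V-ATPase (0.008), lysosome (-0.012) and actin (-0.036). After quantile normalization 9 did: TRiC and prefoldin (0.043), mitochondrial chaperones (0.038), spliceosome core (0.025), MCM (0.024), NRF2 (0.011), ATF4 (0.003), homologous recombination (-0.008), YAP (-0.015) and interferon (-0.018). Depth limits genes under 1 TPM in a line most, 339 members in all.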

Other observations

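Small regulatory GTPases were divided. RAB6B, in TPM at 37 and then 40 °C, measured 17.4 and 15.6 TPM for TPC-1 against 5.75 and 8.22 TPM for B-CPAP (0.61), and RAB11A, of recycling endosomes, was at 56.4 and 69.2 against 40.3 and 46.8 TPM (-0.40). The 41 RAB genes had a median of -0.03, which was 0.14 without GC adjustment and 0.03 both with coding length adjusted for and among genes averaging 20 TPM or more. DDX39B, a helicase of mRNA export, was at 14.6 and 24.5 against 13.4 and 12.7 TPM, a difference of -0.82 (counting interval -1.02 to -0.62), whereas DDX46, of the spliceosome, was at 31.1 and 30.2 against 22.8 and 43.1 TPM (0.57). ZNF146 was at 28 and 26.1 against 17.3 and 35.3 TPM (0.81) in a chromosome 19 zinc finger list with a median of -0.06.

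Apoptosis and autophagy genes also lay on both sides. PMAIP1, which encodes NOXA, measured 6.36 and 12.8 TPM for TPC-1 against 13.2 and 21.7 TPM for B-CPAP (-0.53), and MCL1, which NOXA binds, was at 266.0 and 270.5 against 89.0 and 123.2 TPM (0.29). RB1CC1, which starts autophagosome formation, was at 25.7 and 32.2 against 7.82 and 19.2 TPM (0.53), and ATG3, of the lipid conjugation step, was at 15.9 and 23.3 against 27.7 and 37.6 TPM (-0.47). The autophagy list of 24 genes had a median of -0.09.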
